A study of Mus musculus with 4 samples.

Results

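Tcf7, Lef1, Satb1, Bach2, Myb, Ets1 and Sox4 encode transcription factors known from naive T cells and their precursors. They were picked by symbol, and 7 of the 38924 gene identifiers in the count table matched. They were followed in 2 populations of mouse regulatory T cells (Treg) sorted from spleen, activated Treg and resting Treg, with 2 libraries each from separate animals. Both populations are CD4+ Foxp3+ cells, and the labels print the same sort gate for both. Strain, age and any treatment of the mice: not given in the sources used here. Graded activity of Foxo1 in Treg is the subject of the series title. RNA was amplified with a low-input kit, and the libraries held between 20282062 and 31851982 counts. A heading of the count table shows the group but not the animal, so libraries are called A and B within each group. The letters are names that say nothing of which animals belong together, and per-library values below are in the order A, B.

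Naive and resting T cells hold their identity with a small set of factors that bind near genes of homing, survival and quiescence. TCF and LEF proteins bind DNA through an HMG box and can act as activators with β-catenin or as repressors with Groucho (TLE) proteins. Satb1 organizes chromatin and takes part in setting up the Treg gene programme in the thymus. Bach2 is a repressor that shares binding sites with AP-1 and holds back effector genes, Prdm1 among them. Ets1, Myb and Sox4 belong to the ETS, MYB and SOX families, and each has a part in T cell development.

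All 7 genes had lower CPM (counts scaled to a common library size) in both activated libraries than in both resting libraries. Among the 6 genes well above the filter in both groups, the difference was largest for Satb1, at 0.253 of its resting level, and smallest for Ets1, at 0.720. By edgeR's quasi-likelihood test with Benjamini-Hochberg adjustment over 14235 genes, 0 of the 7 were called, and 0% of all genes were called lower or higher. DESeq2 called Tcf7, Lef1, Satb1 and Bach2 lower, against 0.829% of all genes tested. Sox4 entered the tests through the resting libraries alone. A gene needed about 0.4 CPM in any 2 libraries, and Sox4 was below this in both activated ones. It is left out of the counts that follow. Of the other 6, 6 were lower in activated Treg at an unadjusted edgeR p under 0.05, where 2.61% of all genes were, and 0 were higher, where 6.3% were. Limma-voom gave the same counts, beside 2.59% of all genes lower and 6.35% higher. In these 6 genes the activated libraries did not overlap the resting ones and were lower, as in 17.4% of all genes, while 19.8% were higher without overlap. The median log2 fold change, activated over resting, was -1.02 over the 6 genes and -0.0073 over all genes tested. In bulk RNA, fewer cells that express a gene and less RNA per cell cannot be told apart.

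**Figure D1:**
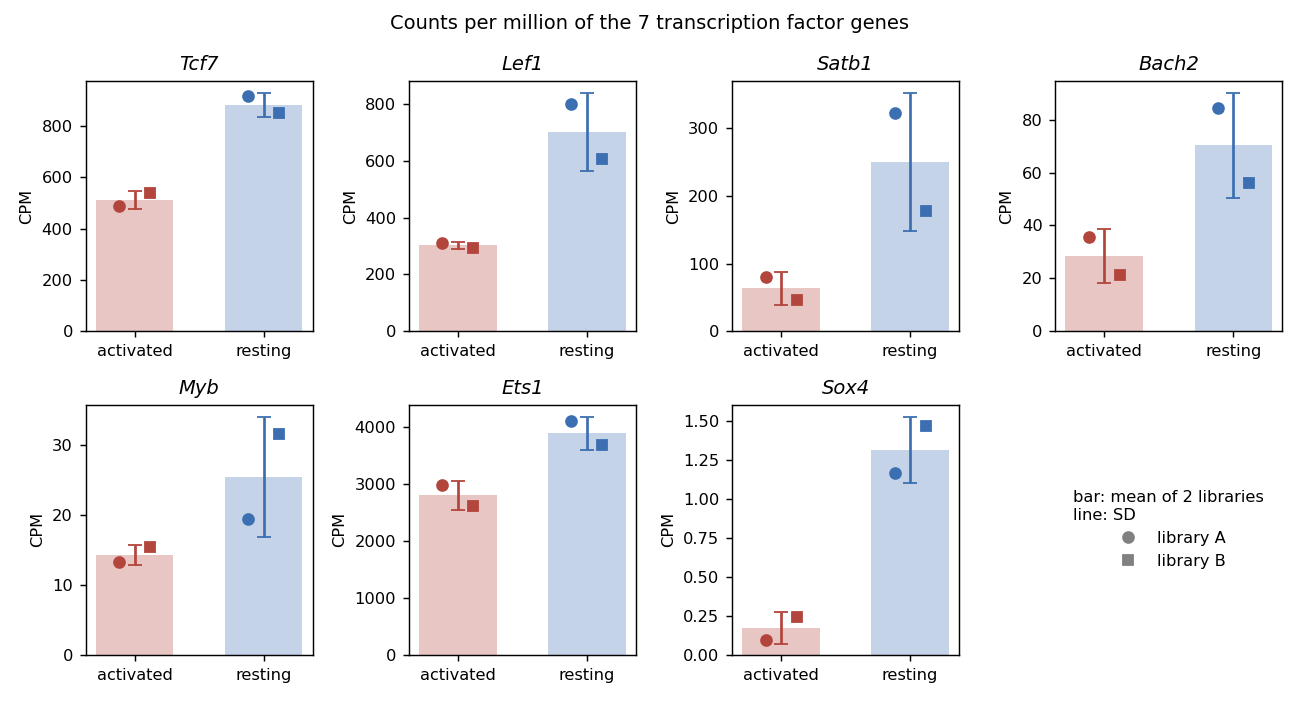
CPM of each gene (y axis, from 0) in activated and resting Treg; points are libraries A and B, bars the mean of the 2 libraries and lines the SD. In each panel both activated points lie below both resting points, as for Satb1 at 80.4 and 46.1 CPM in activated Treg against 322 and 178 CPM in resting Treg.

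Tcf7 encodes the HMG box factor TCF1, which naive and memory T cells need for self-renewal (chr11:52252371-52283014, minus strand; mm10, GENCODE M21). It stood at 489 and 538 CPM in activated Treg, against 916 and 850 CPM in resting Treg. Libraries of a group were close to each other, and the groups were apart. The means were 513 ± 34.8 CPM in activated Treg and 883 ± 46.5 CPM in resting Treg (SD, n = 2 each), a log2 fold change of -0.78 ± 0.16 (SE). The edgeR adjusted p was 0.301 and the DESeq2 adjusted p 0.0072. The DESeq2 call was lost without activated A (adjusted p = 0.124), without resting A (adjusted p = 0.687) and without resting B (adjusted p = 0.313). Counts are per gene, so long Tcf7 transcripts that encode the β-catenin binding region and short ones that lack it were not told apart.

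Lef1 encodes a relative of TCF1 with the same HMG box and many shared sites (chr3:131110471-131224356, plus strand). It stood at 312 and 293 CPM in activated Treg, against 799 and 605 CPM in resting Treg. The activated libraries nearly coincided, while the resting ones differed more from each other and stayed above. The log2 fold change was -1.21 ± 0.20 (SE), with an edgeR adjusted p of 0.282 and a DESeq2 adjusted p of 9.05e-05. Without resting A the DESeq2 call was lost (adjusted p = 0.151). The ratio of Tcf7 to Lef1 counts was 1.57 and 1.83 in activated Treg, against 1.15 and 1.41 in resting Treg. These ratios did not overlap between the groups, and their difference was not tested. The antisense gene Gm43352 shares 13.7% of the exonic bases of Lef1.

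Satb1 (chr17:51736187-51833290, minus strand) stood at 80.4 and 46.1 CPM in activated Treg, against 322 and 178 CPM in resting Treg. Library A was the higher one in each group, and the lower resting library was above the higher activated one. The log2 fold change was -1.98 ± 0.41 (SE), with an edgeR adjusted p of 0.297 and a DESeq2 adjusted p of 0.000124. Of the 7 genes, Satb1 alone was called lower by DESeq2 whichever library was left out, with its largest adjusted p, 0.0342, without resting A. Each such fit leaves 1 library in a group, which is assumed to vary like the 2 of the other group, so these p-values are weak evidence of stability. With edgeR it passed without resting A (adjusted p = 0.0221) and without resting B (adjusted p = 0.0153).

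Bach2 (chr4:32238804-32586108, plus strand) stood at 35.6 and 21.2 CPM in activated Treg, against 84.3 and 56.2 CPM in resting Treg. As for Satb1, library A was the higher one in each group, and the groups did not overlap. The log2 fold change was -1.30 ± 0.35 (SE), with an edgeR adjusted p of 0.366 and a DESeq2 adjusted p of 0.0216. The DESeq2 call was lost without activated B (adjusted p = 0.327) and without resting A (adjusted p = 0.726). The antisense gene Bach2os shares 5.4% of the exonic bases of Bach2, and whether counting used strand is unknown (not given in the sources used here). Bach2os had 17 and 14 counts in activated Treg, against 53 and 27 counts in resting Treg, far below the counts of Bach2, which were 1089 and 430 in activated Treg, against 1735 and 1722 in resting Treg.

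Promoter sequence was examined because these genes were lower together. RefSeq (GRCm38.p6) gave a window for 6 of the 7 genes, and the 250 bases before each start were searched on both strands. The motifs were CTTTGA for TCF/LEF, ACAAAG for SOX, CCGGAAG for ETS, GTAAACA for Foxo, TGACTCA for Bach and AP-1, TGTGGT for Runx, TAACNG for Myb and CAGCTG for E proteins. Bach2 is shown because its window held matches for 2 of the families studied here, and Myb because its window held none. The Bach2 window (chr4:32417185-32417434, plus strand) belongs to a start inside the gene as GENCODE draws it. The Myb window is chr10:21160985-21161234, minus strand, and capitals mark the matches.
Bach2: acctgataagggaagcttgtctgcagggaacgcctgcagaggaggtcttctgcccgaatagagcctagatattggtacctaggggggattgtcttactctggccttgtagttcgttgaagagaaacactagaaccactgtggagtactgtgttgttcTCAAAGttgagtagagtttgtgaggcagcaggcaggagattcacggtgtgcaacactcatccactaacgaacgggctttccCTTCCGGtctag
Myb: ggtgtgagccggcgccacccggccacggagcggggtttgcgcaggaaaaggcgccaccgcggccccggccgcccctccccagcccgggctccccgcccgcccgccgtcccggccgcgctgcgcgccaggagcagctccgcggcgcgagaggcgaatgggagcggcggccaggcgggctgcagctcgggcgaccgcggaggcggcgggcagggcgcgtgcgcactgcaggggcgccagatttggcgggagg

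In the Bach2 window the TCF/LEF match, TCAAAG on the gene's strand, began 93 bases before the start, and the ETS match, CTTCCGG, began 12 bases before it. Among all 27025 windows of that length, 14.1% held the TCF/LEF motif and 7.07% the ETS motif. The Myb window was 81.2% G and C and the Bach2 window 50.4%, beside a median of 52% over all windows. The Sox4 window held 1 CAGCTG, found in 12.7% of windows. The Lef1 window, with 1 TAACNG (found in 19.8%), and the Satb1 window, with none of the 8 motifs, lie wholly in annotated exons. Both windows lie outside their own gene as GENCODE draws it, so these exons belong to other genes. The 1 CAGCTG in the Tcf7 window lies in what appears to be coding sequence of the long form and is not read as a promoter match. SOX, Foxo, Bach and Runx letters, found in 16.5%, 3.06%, 4.43% and 14.2% of windows, were in none of the 6. A match is a description of letters and shows no binding, and no match says only that the letters are not in the window.

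Ets1, an ETS factor of T and B cells (chr9:32636221-32757820, plus strand), ranked 15 by mean CPM among all genes tested. It stood at 2977 and 2614 CPM in activated Treg, against 4093 and 3684 CPM in resting Treg. The groups did not overlap, and the step between them was small beside the level. The log2 fold change was -0.47 ± 0.16 (SE), with an edgeR adjusted p of 0.491 and a DESeq2 adjusted p of 0.302. Ets1 passed in neither test, at 53100 or more counts in each library.

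Myb, a factor of progenitors and dividing lymphocytes (chr10:21124935-21160984, minus strand), stood at 13.3 and 15.4 CPM in activated Treg, against 19.4 and 31.5 CPM in resting Treg. Resting B stood above the other libraries, and resting A was close to activated B. The log2 fold change was -0.83 ± 0.31 (SE), with an edgeR adjusted p of 0.531 and a DESeq2 adjusted p of 0.356, and it was -0.45 without resting B. A list of 14 proliferation genes was also highest in resting B, with summed levels of 566 and 1062 CPM in activated Treg, against 431 and 1434 CPM in resting Treg. In resting A, where that sum was the lowest of the 4, Myb stood at 19.4 CPM, against 13.3 and 15.4 CPM in activated Treg. This is 1 library, and the part of proliferation in the Myb values was not tested.

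Sox4, a single-exon gene active in thymocytes (chr13:28948919-28953713, minus strand), was barely detected. It had 3 and 5 counts in activated Treg, against 24 and 45 counts in resting Treg, or 0.0981 and 0.246 CPM against 1.17 and 1.47 CPM. The ratio of activated to resting CPM from the summed counts was 0.117, with an exact 95% interval of 0.0485 to 0.243 that covers counting error only. The fitted log2 fold change was -2.95 ± 0.78 (SE), with an edgeR adjusted p of 0.363 and a DESeq2 adjusted p of 0.217. The RNA gene Gm26735 on the other strand covers 54.6% of the exonic bases of Sox4 and itself had 1 count, in resting A.

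**Figure D2:**
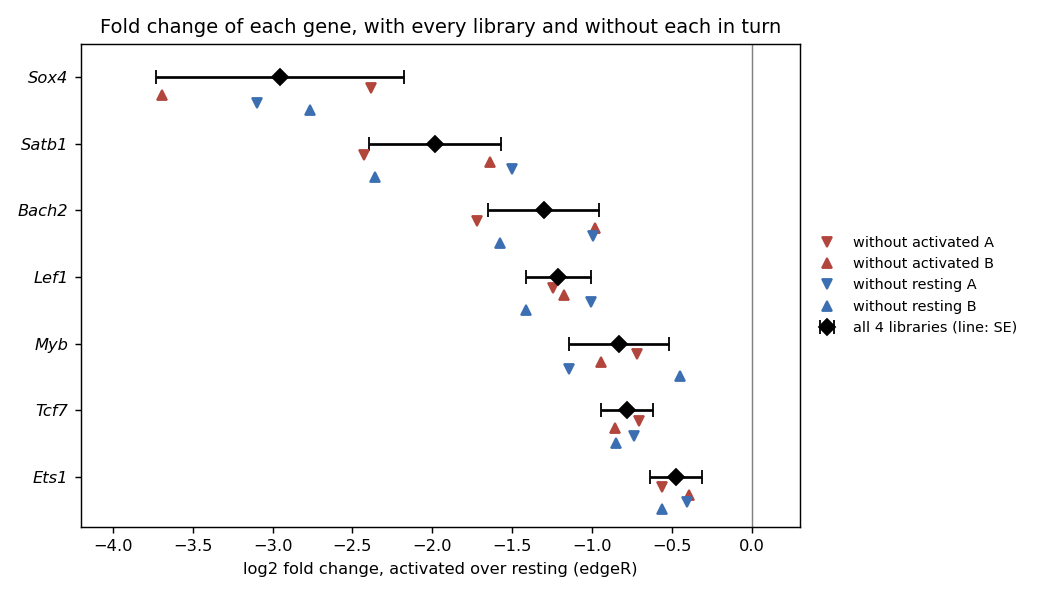
Log2 fold change of each gene, activated over resting, from edgeR (x axis); diamonds use all 4 libraries with the SE as a line, and triangles leave out 1 library. All points lie below 0, from -0.39 for Ets1 without activated B to -3.69 for Sox4 without activated B.

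The fold changes kept their sign without each library in turn. The log2 fold change ranged from -0.70 to -0.86 for Tcf7, from -1.01 to -1.41 for Lef1, from -1.50 to -2.43 for Satb1 and from -0.98 to -1.72 for Bach2. It ranged from -0.45 to -1.15 for Myb, from -0.39 to -0.56 for Ets1 and from -2.39 to -3.69 for Sox4. The deposited regularized log2 values, whose columns carry replicate numbers, also placed both activated samples below both resting ones for each gene. On that scale the difference was largest for Satb1 (-1.83) and smallest for Ets1 (-0.45). For Sox4 it was -0.87, less than in the count fit, since this scale shrinks low counts towards the gene's mean.

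Levels were compared between genes per length, as CPM per kb of annotated exon. Ets1 stood first at 329.8 ± 30.3 in activated Treg and 459 ± 34.1 in resting Treg (SD, n = 2 each). Tcf7 followed at 196 ± 13.3 in activated Treg and 337 ± 17.7 in resting Treg, and Lef1 at 34.4 ± 1.49 in activated Treg and 79.9 ± 15.6 in resting Treg. These 3 genes formed the upper tier, each apart from its neighbours in the libraries of both groups. Satb1 was at 4.22 and 2.42 in activated Treg, against 16.9 and 9.34 in resting Treg. Bach2 was at 3.58 and 2.13 in activated Treg, against 8.48 and 5.65 in resting Treg. The libraries of Satb1 and Bach2 thus overlapped in activated Treg but not in resting Treg. Myb was at 1.60 ± 0.163 in activated Treg and 2.85 ± 0.963 in resting Treg, and Sox4 came last at 0.0359 ± 0.0218 in activated Treg and 0.275 ± 0.0446 in resting Treg. With the longest transcript as length, Bach2 and Myb overlapped in both groups, and Satb1 stood apart from its neighbours in both.

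**Figure D3:**
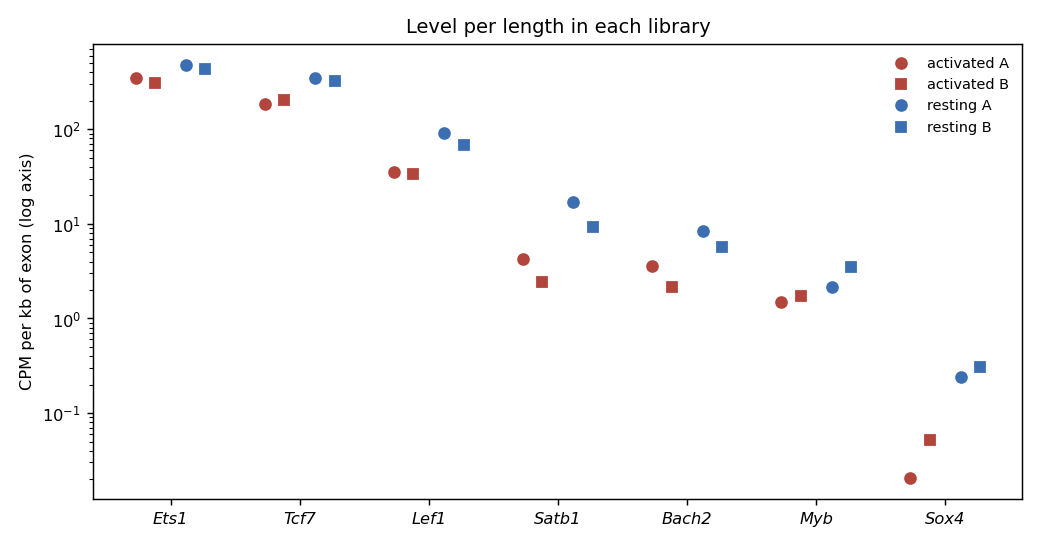
CPM per kb of exon in each library (y axis, log scale) for the 7 genes, in the order of their levels. Ets1, Tcf7 and Lef1 lie at 33.4 or more in every library, Satb1, Bach2 and Myb between 1.49 and 16.9, and Sox4 at 0.306 or less.

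The balance with effector regulators was read within each library. Prdm1, which Bach2 represses, stood at 30.9 and 53.7 CPM in activated Treg, against 15.0 and 21.1 CPM in resting Treg. The ratio of Bach2 to Prdm1 counts was 1.15 and 0.394 in activated Treg, against 5.61 and 2.66 in resting Treg. Id2, an inhibitor of E proteins, stood at 244 and 356 CPM in activated Treg, against 89.6 and 103 CPM in resting Treg. The ratio of Lef1 to Id2 counts was 1.28 and 0.824 in activated Treg, against 8.92 and 5.86 in resting Treg. Neither ratio overlapped between the groups, which follows from the levels and adds no separate evidence. In both activated libraries Bach2 and Lef1 were lower, and Prdm1 and Id2 higher, than in both resting ones. DESeq2 called Id2 higher (adjusted p = 2.99e-06) and did not call Prdm1 (adjusted p = 0.0618), while edgeR called neither (adjusted p = 0.267 and 0.399). Foxo1, which drives Ccr7 and other genes of resting T cells, stood at 162 and 127 CPM in activated Treg, against 259 and 227 CPM in resting Treg (DESeq2 adjusted p = 0.0615).

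Relatives and nuclear partners of the TCF and LEF proteins had a median log2 fold change of -0.05 over 14 tested genes. EdgeR and DESeq2 called 0 of them, and 1 was lower at an unadjusted edgeR p under 0.05, the β-catenin cofactor Bcl9l, named after its values were seen. Aes, a short Groucho gene, stood at 50.3 and 95.3 CPM in activated Treg, against 77.9 and 99.1 CPM in resting Treg. Ctnnb1, which encodes β-catenin, stood at 65.8 and 67.5 CPM in activated Treg, against 59.1 and 70.3 CPM in resting Treg, so both genes overlapped between the groups. Tcf7l2 stood at 24.8 and 5.22 CPM in activated Treg, against 17.5 and 5.12 CPM in resting Treg, and so split the letters rather than the groups. Genes of β-catenin control and feedback had a median of -0.0084 over 14 tested, and DESeq2 called 1. That gene was Rnf43, a ubiquitin ligase that restrains Wnt receptors, at 78.4 and 85.7 CPM in activated Treg, against 24.6 and 31.4 CPM in resting Treg. Its log2 fold change was 1.55 ± 0.21 (SE; DESeq2 adjusted p = 1.1e-06, edgeR adjusted p = 0.267).

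Of 11 close relatives of the 7 genes 5 were tested, with a median log2 fold change of -0.13, and DESeq2 called 0. Ets2 came nearest, at 11.8 and 10.5 CPM in activated Treg, against 26.4 and 19.5 CPM in resting Treg (log2 fold change -1.04 ± 0.27 SE, DESeq2 adjusted p = 0.0585). Bach1, which binds the same sites as Bach2, stood at 9.84 and 6.60 CPM in activated Treg, against 12.4 and 9.36 CPM in resting Treg. Mybl2, a MYB gene of dividing cells, stood at 3.27 and 6.40 CPM in activated Treg, against 2.62 and 7.93 CPM in resting Treg. Mybl1 (0.194 to 1.47 CPM over the 4 libraries) and Sox12 (0.486 to 0.784 CPM) were low throughout. ETS genes other than Ets1 had a median of -0.10 over 15 tested. The abundant Elf1 stood at 398 and 309 CPM in activated Treg, against 457 and 368 CPM in resting Treg, and Fli1 at 245 and 240 CPM in activated Treg, against 262 and 284 CPM in resting Treg. DESeq2 called 1 ETS gene, Spib, which plasmacytoid dendritic and B cells use. It stood at 30.2 and 6.74 CPM in activated Treg, against 1.70 and 0.261 CPM in resting Treg. Spib fell below the filter level of about 0.4 CPM in resting B, so the resting libraries alone would not have passed it. Partners and relatives of Bach2 had a median of 0.18 over 7 tested, with 0 called. Among them the AP-1 factor Batf stood at 80.3 and 187 CPM in activated Treg, against 43.6 and 87.4 CPM in resting Treg.

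Of 16 naive T cell genes tested DESeq2 called 9 lower and 0 higher, edgeR called 0, and the median log2 fold change was -1.22. S1pr1, the receptor for exit from lymphoid organs, stood at 343 and 332 CPM in activated Treg, against 876 and 881 CPM in resting Treg. Dapl1 had the smallest DESeq2 adjusted p of the list (4.17e-14), at 4.02 and 4.92 CPM in activated Treg, against 33.0 and 28.4 CPM in resting Treg. Id3 and Il7r overlapped between the groups, Id3 at 214 and 341 CPM in activated Treg, against 269 and 433 CPM in resting Treg. Of 16 effector genes tested DESeq2 called 5 higher, where 2.28% of all genes were, and 0 lower, with a median of 1.36. Among those called, Il10 stood at 0.389 CPM in resting A, below the filter level of about 0.4 CPM. Il10 thus needed an activated library to pass the filter, since resting B alone, at 0.946 CPM, did not suffice. Maf, a regulator of Il10, stood at 192 and 244 CPM in activated Treg, against 35.2 and 91.6 CPM in resting Treg. Treg core genes had a median of 0.13 over 11 tested, and DESeq2 called 1, Gpr83, lower. Foxp3 stood at 37.5 and 36.6 CPM in activated Treg, against 38.8 and 35.0 CPM in resting Treg. Cd44, named in the gate, stood at 329 and 334 CPM in activated Treg, against 145 and 213 CPM in resting Treg (DESeq2 adjusted p = 0.0417). Immature thymocyte genes had a median of 0.38 over 7 tested, with 0 called by DESeq2.

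**Figure D4:**
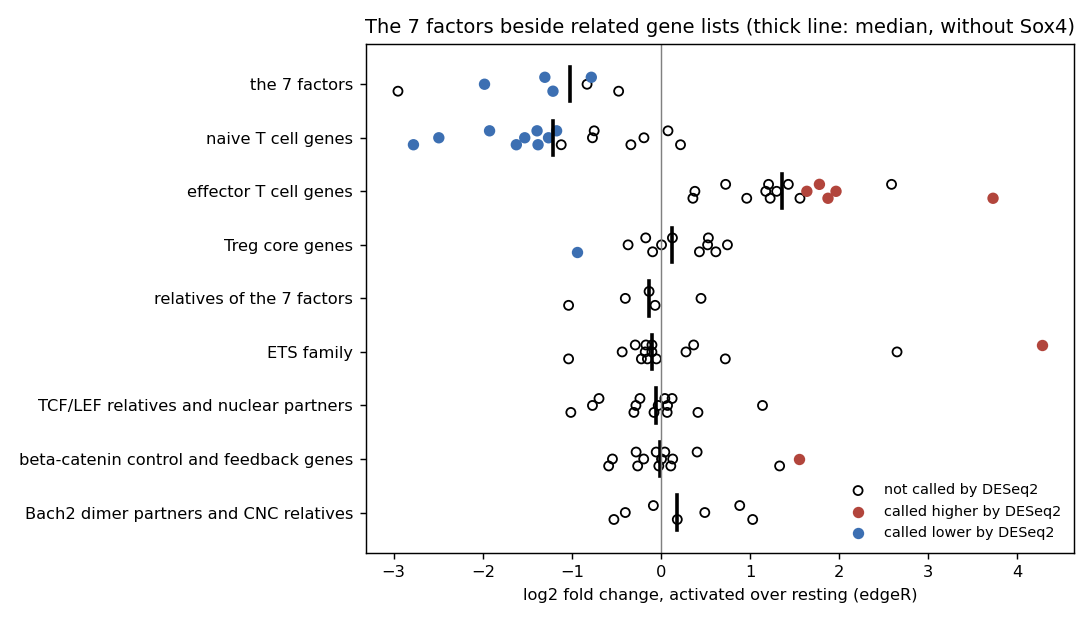
Log2 fold change, activated over resting, of each tested gene (x axis) in the 7 factors and 8 related lists (one line each); filled points were called by DESeq2, blue lower and red higher, and thick lines are medians, without Sox4 in the top line. The medians are -1.02 for the factors, -1.22 for naive T cell genes and 1.36 for effector genes.

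Markers of other cell types were detected and differed between libraries. Over 12 plasmacytoid dendritic cell markers the summed level was 1216 and 343 CPM in activated Treg, against 127 and 104 CPM in resting Treg. DESeq2 called 9 of the 11 tested higher, where 2.28% of all genes were. Of these 9, Klra17, Cd300c, Bcl11a, Siglech and Spib fell below the filter level of about 0.4 CPM in resting B. The resting libraries alone would not have passed these genes, so the count of 9 is a description only. Klra17 was at 0 in both resting libraries. The part of these cells in the factor levels was not tested. Without activated A, where that sum was highest, the log2 fold changes of Satb1 (-2.43), Bach2 (-1.72), Lef1 (-1.25) and Ets1 (-0.56) were larger, and those of Tcf7 (-0.70) and Myb (-0.72) smaller. Red pulp macrophage markers split the letters, with a sum over 9 genes of 757 and 39.6 CPM in activated Treg, against 892 and 18.4 CPM in resting Treg. B cell markers summed to 87.9 and 118 CPM in activated Treg, against 47.0 and 66.6 CPM in resting Treg, with the defining gene Pax5 at 0.391 CPM or less in each library. Myeloid and conventional dendritic cell markers summed to 376 and 205 CPM in activated Treg, against 189 and 131 CPM in resting Treg. NK and innate lymphoid markers summed to 47.2 and 30.5 CPM in activated Treg, against 39.9 and 21.4 CPM in resting Treg. This sum joins genes that went opposite ways. Klrb1c stood at 11.7 and 15.7 CPM in activated Treg, against 2.14 and 3.88 CPM in resting Treg. Prf1 stood at 10.4 and 4.68 CPM in activated Treg, against 31.5 and 13.4 CPM in resting Treg. Erythroid markers summed to 14.8 and 2.12 CPM in activated Treg, against 26.0 and 1.01 CPM in resting Treg.

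Because macrophage and proliferation genes split the letters in both groups, the differences were also read within each letter. Each reading has 1 library on each side and no test. The letters say nothing of which animals belong together, so these ratios cannot be read as matched replicates. The log2 ratio of activated to resting was -1.24 for Bach2 between the A libraries and -1.41 between the B libraries. In the same order it was -1.36 and -1.04 for Lef1, -0.91 and -0.66 for Tcf7, -0.46 and -0.50 for Ets1 and -0.54 and -1.04 for Myb. For Satb1 it was -1.95 between the B libraries and slightly lower between the A libraries. Within a group, the log2 ratio of A to B was 0.80 in activated Treg and 0.86 in resting Treg for Satb1. It was 0.75 in activated Treg and 0.59 in resting Treg for Bach2, and -0.21 in activated Treg and -0.70 in resting Treg for Myb. For Lef1 it was 0.09 in activated Treg and 0.40 in resting Treg, for Ets1 0.19 and 0.15, and for Sox4 -1.33 and -0.33, in the same order. Tcf7 changed sign, at -0.14 in activated Treg and 0.11 in resting Treg. Satb1, Bach2, Lef1 and Ets1 were thus higher in the libraries with more macrophage and less proliferation RNA, and Myb and Sox4 in the others. The part of either RNA was not tested.

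**Figure D5:**
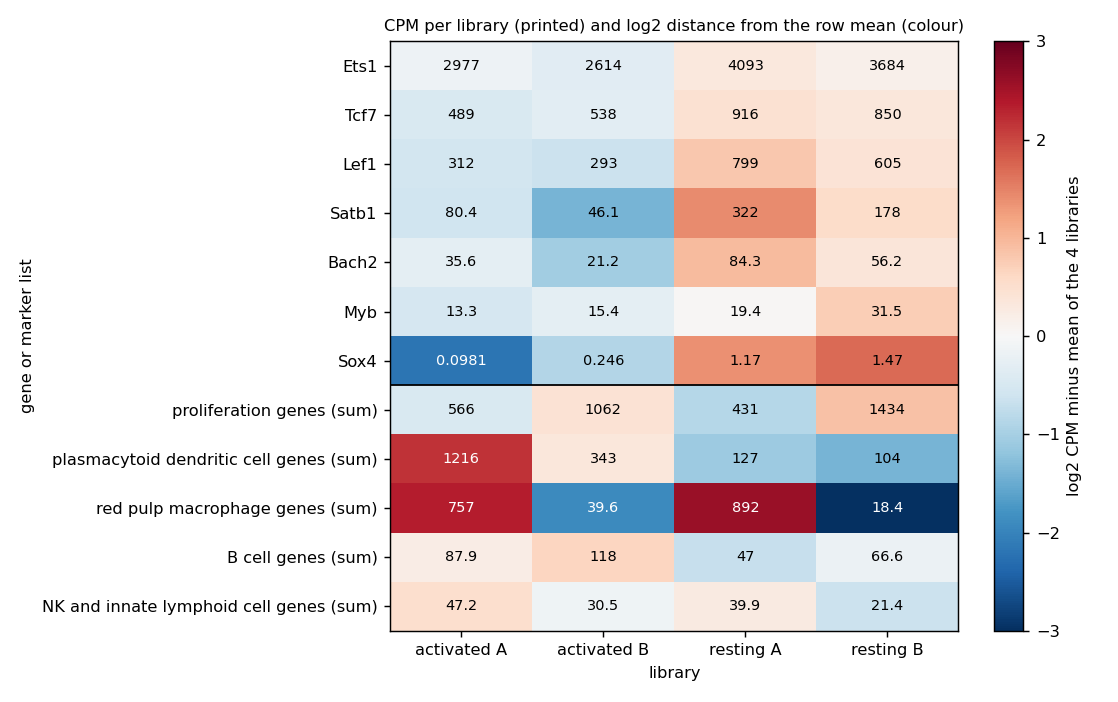
CPM of the 7 factors and summed CPM of marker lists (one line each) in the 4 libraries (columns), with the colour giving the log2 distance from the line's mean. The factors split activated from resting libraries, plasmacytoid dendritic cell markers peak in activated A at 1216 CPM, and macrophage markers split A (757 and 892 CPM) from B (39.6 and 18.4 CPM).

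Genes with the most similar profiles were found by the Euclidean distance between log2(CPM + 0.5) values centred on the mean of the 4 libraries, among 7028 named protein-coding genes. With 4 libraries many genes share any profile, so the names are a description. Nearest to Tcf7 was Plec, a cytoskeletal linker, at a distance of 0.0653, followed by Slfn1 and Bicdl1. Nearest to Lef1 was Aven (0.113), followed by Add3 and by Actn1, one of the naive T cell genes. Nearest to Satb1 was Als2cl (0.453). Nearest to Bach2 was the Kruppel-like factor Klf7 (0.087), at 32.3 and 18.7 CPM in activated Treg, against 71.5 and 47.3 CPM in resting Treg. The kinetochore gene Ndc80 was nearest to Myb (0.127), at 14.8 and 17.7 CPM in activated Treg, against 21.6 and 39.1 CPM in resting Treg. Stk10, a lymphocyte kinase, was nearest to Ets1 (0.0178). For Sox4, at 3 and 5 counts in activated Treg, the offset of 0.5 compresses the profile, so its neighbours are not given.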

How the data were processed

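RNA of 2 activated and 2 resting Treg samples was sequenced after column isolation and low-input amplification, per the labels' protocols. Tools named in the submitters' processing notes are featureCounts, STAR 2.4.0c and DESeq2, with mm10 as build and no roles. The deposited table of raw counts per gene and the deposited regularized log2 values were used as the authors gave them; annotation release, strand setting and filters: not given in the sources used here. Gene names and coordinates were taken from GENCODE M21, matching 37607 of 38924 identifiers.

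Genes kept by filterByExpr (minimum count 10, total 15; 14235 genes) were tested with edgeR 4.0.16 (R 4.3.3) after TMM scaling, with group alone as the term; DESeq2 1.42.0 and limma 3.58.1 served as alternatives. Adjustment was by Benjamini-Hochberg over all genes tested, at a threshold of 0.05. Each SE is the size of the log2 fold change divided by the root of its F statistic. With 2 libraries against 2 an exact permutation test cannot go below p = 0.333. The procedure was tested on simulated data. Members and lists were chosen with earlier results of these data known. Beyond the 7 genes, those named were the most abundant and the DESeq2-called genes of each list, the closest relatives, known partners, sort markers and up to 3 nearest profiles per gene. Library totals of 20282062 to 31851982 counts make 1 CPM equal to 20.3 to 30.7 counts. Counts are reads without molecular identifiers, so intervals cover counting error only. A few listed genes are not reported here.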

Additional observations from a re-analysis of the deposited data

How the results depend on the processing

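All 7 fold changes stayed below 0 in every alternative fit. The number of the 7 called lower was 0 with edgeR, with RLE scaling, with limma-voom and with limma on the regularized log2 values. It was 4 with DESeq2, 4 when edgeR kept every gene with at least 1 count, and from 0 to 1 without each library in turn; none was called higher. That wider filter tests 26327 genes and moves the median log2 fold change of all genes to 0.136. DESeq2 without each library in turn, added after seeing the data, called from 1 to 3, the fewest without resting A. For the 117 other listed genes tested, edgeR called 0; 13 were lower and 18 higher with every gene kept (128 tested), 10 and 7 with DESeq2, and from 0 to 7 in each direction without one library. Over all genes edgeR called 0, with 371 lower and 897 higher at an unadjusted p under 0.05; limma-voom called 0; 177 were lower and 675 higher with every gene kept, and 118 and 324 with DESeq2. Without one library, from 0 to 36 were lower and from 0 to 334 higher. The cause of these differences between tools was not tested.

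With the replicate block on the regularized log2 values, limma called 7 of the 7 lower, Sox4 included, which passed the filter through resting Treg alone, 19 other listed genes lower and 24 higher, and 525 and 1027 over all genes. Deviations of same-numbered samples from their group mean correlated at r = 0.652 across genes. Crossed numbers gave r = -0.652, a mirror image fixed by having 2 samples per group. There are only 2 pairs. The labels describe separate animals and do not say what same-numbered samples share beyond the number. The source of the correlation was not tested. The count table was not blocked: its headings do not give each column its own number, and columns were not numbered by their values. Sox4, with 8 counts in activated Treg, is limited by depth; with the longest transcript as length, Myb stands above Bach2 in activated Treg, with overlap, while in resting Treg Bach2 stays above Myb, with overlap.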
